A study of Mus musculus with 18 samples.

Results

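The 10 genes described here belong to the Notch pathway: the receptors Notch1, Notch2 and Notch3, the ligand genes Dll1, Dll3, Jag1 and Jag2, and the transcriptional repressors Hes1, Hes5 and Hey1, which are textbook targets of the pathway. They were chosen by name, as the rows of the deposited count table that carry these symbols, from 37310 genes. All 10 passed the filter on low counts that left 15433 genes for testing. RNA was measured by RNA-seq in cultured mouse cortical neurons that were Fmr1 knockout (KO) or wildtype (WT). The cultures were treated after 7 days in vitro with the drug JQ1 or with its vehicle DMSO for 24 h, and each of the 4 groups (KO with JQ1, WT with JQ1, KO with DMSO, WT with DMSO) had 3 replicate libraries. Fmr1 encodes FMRP, an RNA-binding protein whose loss causes fragile X syndrome in humans, and JQ1 displaces BET bromodomain proteins from acetylated chromatin. The labels give neither the strain, the age of the mice, the dose of JQ1 nor whether replicates came from separate animals or cultures, so p-values measure only the spread between these libraries. Another 6 labelled samples, treated with THZ1, were not analysed here.

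In Notch signalling, a Delta or Jagged ligand on 1 cell binds a Notch receptor on its neighbour. The receptor is then cut by ADAM proteases and gamma-secretase, and its freed intracellular part joins the DNA-binding protein RBPJ in the nucleus and switches on Hes and Hey genes. In the developing cortex, Hes1 and Hes5 hold radial glia in a progenitor state by repressing proneural factors, while differentiating neurons are known for carrying the ligand Dll1.

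Library totals ran from 21643592 to 134110850 gene counts. Fmr1 stood at 21.5 to 34.6 CPM (a gene's counts scaled to a common library total) in the 6 KO libraries, against 119 to 154 CPM in the 6 WT libraries. Both KO libraries numbered 3 stood apart from the rest. Xist, the X-inactivation RNA, was at 4.34 CPM with JQ1 and 4.29 CPM with DMSO, against at least 230 CPM in each other library. Ddx3y, a gene of the Y chromosome, was highest in the same KO libraries, at 76.2 CPM with JQ1 and 54.55 CPM with DMSO. The other libraries had 28.1 to 46.1 CPM of Ddx3y. The sex make-up of the cultures was not tested, and results are also given without both KO libraries numbered 3. The 12 neuron markers summed to between 8117 and 9662 CPM in every library. Markers of astrocytes and radial glia (15 genes, 961 to 2241 CPM summed), dividing cells (10 genes, 127 to 248 CPM), the oligodendrocyte lineage (8 genes, 146 to 213 CPM) and Cajal-Retzius cells (6 genes, 195 to 334 CPM) were detected too. Markers of fibroblasts (7.60 to 34.7 CPM), microglia (7.30 to 14.1 CPM), mural cells (1.82 to 6.34 CPM) and endothelial cells (2.55 to 5.36 CPM) were low. In such bulk RNA, fewer cells of a type and less RNA per cell cannot be told apart.

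Upstream sequence is shown for the 4 genes that passed the test in at least 1 comparison below, since the nuclear step of the pathway acts through RBPJ at promoters. The windows are the 250 bases before each RefSeq start on the GRCm38.p6 assembly, written 5′ to 3′ on the gene's strand, while the deposited counts were made on mm9. They lie at chr4:154960673-154960922 on the plus strand for Hes5, and on the minus strand at chr2:137116521-137116770 for Jag1, chr17:32166891-32167140 for Notch3, and chr17:15376933-15377182 and chr17:15375824-15376073 for the upstream and the downstream start of Dll1. Capitals mark TGGGAA, the core of the RBPJ recognition motif, and CACNAG, the N-box that Hes repressors are known to bind, each on either strand.
Hes5: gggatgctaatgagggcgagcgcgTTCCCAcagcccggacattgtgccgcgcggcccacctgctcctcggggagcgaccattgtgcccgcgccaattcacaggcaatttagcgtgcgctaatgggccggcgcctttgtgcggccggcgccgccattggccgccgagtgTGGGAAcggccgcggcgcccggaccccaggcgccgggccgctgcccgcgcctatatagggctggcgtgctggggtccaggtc
Jag1: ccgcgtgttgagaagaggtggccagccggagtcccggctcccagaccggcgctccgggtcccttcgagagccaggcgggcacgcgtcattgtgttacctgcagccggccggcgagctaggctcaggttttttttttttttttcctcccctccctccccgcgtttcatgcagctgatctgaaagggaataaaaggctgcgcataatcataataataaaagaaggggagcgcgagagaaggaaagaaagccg
Notch3: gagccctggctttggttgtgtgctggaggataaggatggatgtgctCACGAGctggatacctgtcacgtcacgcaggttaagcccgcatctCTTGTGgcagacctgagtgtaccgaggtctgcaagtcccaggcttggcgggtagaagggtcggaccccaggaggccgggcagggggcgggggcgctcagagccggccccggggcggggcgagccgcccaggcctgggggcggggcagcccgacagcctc
Dll1, upstream start: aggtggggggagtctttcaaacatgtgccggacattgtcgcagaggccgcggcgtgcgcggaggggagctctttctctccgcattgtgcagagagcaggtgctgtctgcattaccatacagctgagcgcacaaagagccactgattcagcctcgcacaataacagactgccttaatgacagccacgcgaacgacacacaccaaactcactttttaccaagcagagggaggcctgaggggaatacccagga
Dll1, downstream start: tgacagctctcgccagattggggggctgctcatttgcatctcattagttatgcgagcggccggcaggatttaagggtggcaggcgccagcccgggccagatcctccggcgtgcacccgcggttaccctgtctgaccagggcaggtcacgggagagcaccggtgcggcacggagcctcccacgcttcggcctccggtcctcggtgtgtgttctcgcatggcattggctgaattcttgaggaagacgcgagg

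Of the 10 genes, 8 had an entry in the RefSeq table, with 9 windows between them. Hes1 and Hey1 had none, so their upstream sequence was not searched. The Hes5 window held TGGGAA 2 times, at 226 bases before the start on the minus strand and at 82 bases before it on the plus strand, and both copies were preceded by G in the longer form GTGGGAA. No other window of the 9 held TGGGAA. Among 32841 promoter windows of the same length, 21.6% held TGGGAA and 5.41% held GTGGGAA, which contains it. CACNAG was found 2 times in the Notch3 window and 1 time each in those of Notch1 and Notch2, against 36.7% of all windows with at least 1 copy, and no copy overlapped TGGGAA. These matches are descriptions of letters in a window, not of binding.

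Levels can be compared between genes only per length, here as CPM per kilobase of annotated exon. In WT neurons with DMSO, Jag2 stood highest at 5.96 ± 0.509 CPM per kb (SD, n = 3), followed by Hey1 at 5.80 ± 0.0570, whose libraries lay within the range of Jag2. Hes5 (3.59 ± 0.371) and Dll1 (3.10 ± 0.104) came next with overlapping libraries, and Hes1 (2.64 ± 0.0914) lay below both without overlap. Notch2 and Notch3 (each 1.63), Dll3 (1.39) and Notch1 (1.25) overlapped one another. Jag1 was lowest at 0.835 ± 0.107 CPM per kb, under every library of the other genes. KO neurons with DMSO also had Jag2 highest, at 6.58 ± 0.465 CPM per kb, and Jag1 lowest, at 0.623 ± 0.0665.

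**Figure D1:**
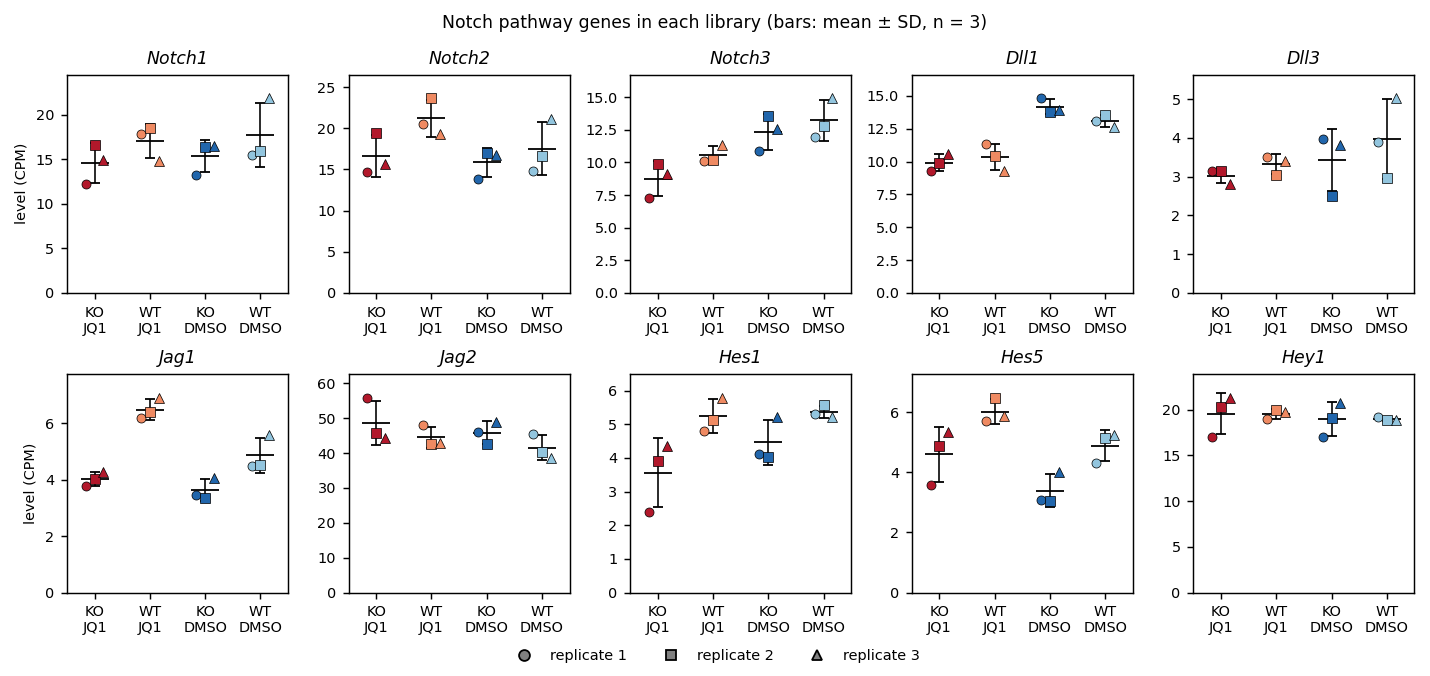
Levels (CPM, linear axes from 0) of the 10 genes in the 12 libraries, 1 panel per gene; marker shapes give the replicate, and bars the mean ± SD (n = 3). The Jag1 panel has all 3 KO libraries below all 3 WT libraries under each treatment, and in the Dll1 panel the 6 JQ1 libraries (9.29 to 11.3 CPM) lie below the 6 DMSO libraries (12.7 to 14.9 CPM).

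The first comparison asks how KO neurons differ from WT neurons without drug. Jag1 and Hes5 were lower in KO neurons, and the other 8 genes did not pass the test. Here and below, a gene passed where edgeR's quasi-likelihood test gave a Benjamini-Hochberg adjusted p under 0.05 over all 15433 genes. These 2 of 10 stand beside a background of 15% of all genes called, 7.21% higher and 7.76% lower. The median log2 change was -0.18 over the 10 genes and -0.015 over all genes tested. KO and WT libraries did not overlap for 1 gene that was higher (Dll1) and 2 that were lower (Jag1 and Hes5), against 37.6% of all genes, 17% higher and 20.7% lower. Log2 changes take the bulk of all genes as their zero. Scaling on the ERCC spike-in RNAs instead moved the median gene by -0.81, and all 10 genes then passed as lower in KO neurons. So did 11990 of the 15433 genes tested, while 4 passed as higher. The ERCC share of counts was 0.168% to 0.348% in KO libraries with DMSO and 0.118% to 0.173% in WT libraries with DMSO.

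Jag1 encodes Jagged1, a ligand of the Serrate type. It stood at 3.47, 3.34 and 4.07 CPM in KO neurons with DMSO, against 4.48, 4.53 and 5.58 CPM in WT neurons with DMSO. Every KO library was below every WT library, and the log2 change was -0.43 (SE 0.112, 95% interval -0.67 to -0.19, edgeR adjusted p = 0.022). The call was lost without KO replicate 1 (adjusted p = 0.0991), KO replicate 2 (0.0995) or WT replicate 3 (0.126).

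Hes5, the repressor that marks Notch-active radial glia, stood at 3.09, 3.05 and 4.01 CPM in KO neurons with DMSO, against 4.31, 5.13 and 5.23 CPM in WT neurons with DMSO. The groups did not overlap, and the log2 change was -0.54 (SE 0.148, 95% interval -0.85 to -0.22, edgeR adjusted p = 0.0281). The call was lost without KO replicate 1 (adjusted p = 0.123), KO replicate 2 (0.117), WT replicate 2 (0.0941) or WT replicate 3 (0.103). Without both KO libraries numbered 3, Jag1 changed by -0.51 (adjusted p = 0.0118) and Hes5 by -0.67 (0.00882). In the authors' deposited table the log2 values, KO over WT, were -0.29 for Jag1 (adjusted p = 0.0392) and -0.36 for Hes5 (0.00984), and those of the other 8 genes had adjusted p between 0.132 and 0.92.

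Markers of other cells are set beside the 15% of all genes called in this comparison (7.21% higher, 7.76% lower). Those of dividing cells had 60% called, all lower. Those of astrocytes and radial glia had 13.3% called, also all lower, near the 15% called either way and against 7.76% called lower. KO libraries lay below all WT libraries for 8 of the 10 dividing-cell and 8 of the 15 astroglial markers, against 20.7% of all genes. Cajal-Retzius markers had 66.7% called, fibroblast markers 50% and neuron markers 41.7%. Of the oligodendrocyte, microglia, mural and endothelial markers tested, 0 passed. Of the 10 markers of dividing cells, 6 were lower in KO neurons with DMSO, among them Cenpf (log2 change -0.57), Bub1 (-0.54) and Cdk1 (-0.47), which act in mitosis, and their sum was 146 to 183 CPM in KO libraries against 200 to 239 CPM in WT libraries. Of the 15 markers of astrocytes and radial glia, 2 were lower, Fgfr3 (-0.62) and Gja1 (-0.60), with sums of 1397 to 1823 CPM in KO libraries and 1901 to 2241 CPM in WT libraries. Without both KO libraries numbered 3, these counts were 8 and 6. The 6 dividing-cell calls dropped to 3 without WT replicate 1 and to 1 without KO replicate 1, KO replicate 2, WT replicate 2 or WT replicate 3. The 2 astroglial calls dropped to 0 without KO replicate 1 and to 1 without KO replicate 2, WT replicate 2 or WT replicate 3, and were 7 with no filter on low counts. Of the 6 Cajal-Retzius markers, 3 were lower in KO neurons with DMSO, Nhlh2 (-1.59), Trp73 (-1.25) and Lhx5 (-1.17), and 1 was higher, Calb2 (0.56) (0 higher and 4 lower with spike-in scaling). Their summed level was 239 to 290 CPM in KO libraries and 195 to 299 CPM in WT libraries. Of the 6 fibroblast markers, Dcn (-1.36) and Lum (-0.92) were lower and Col3a1 (1.53) was higher (0 higher and 3 lower with spike-in scaling), with sums of 11.6 to 15.4 CPM in KO libraries and 25.9 to 34.7 CPM in WT libraries. Of the 12 neuron markers, 5 were higher in KO neurons, and 0 with spike-in scaling. The part of these cells in the Jag1 and Hes5 results was not tested.

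Among the members that did not pass, Hes1 had 4.46 ± 0.663 CPM in KO neurons with DMSO and 5.37 ± 0.186 CPM in WT neurons with DMSO (SD, n = 3 each; log2 change -0.27, SE 0.162, edgeR adjusted p = 0.277). Hey1, whose repressor is also known from blood vessels and heart, had 17.1, 19.1 and 20.7 CPM in KO neurons and 19.2, 18.8 and 18.9 CPM in WT neurons, and the 95% interval of its log2 change ran from -0.18 to 0.18. Jag2, the second Jagged ligand, had 46.0, 42.5 and 49.0 CPM in KO neurons against 45.5, 40.4 and 38.7 CPM in WT neurons, a log2 change of 0.14 (adjusted p = 0.292). Dll1 changed by 0.12, Dll3 by -0.22, Notch1 by -0.21, Notch2 by -0.14 and Notch3 by -0.10 on the log2 scale, with adjusted p between 0.328 and 0.598.

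The same comparison in the presence of JQ1 called Jag1 alone, as lower in KO neurons, against 8.97% of all genes (4.85% higher, 4.13% lower). The median log2 change was -0.24 over the 10 genes and -0.0045 over all genes. KO libraries lay below all WT libraries for 4 genes, Jag1, Hes1, Hes5 and Notch3, against 27% of all genes without overlap (14.1% higher, 12.8% lower). Jag1 had 3.77, 4.03 and 4.28 CPM in KO neurons with JQ1, against 6.17, 6.39 and 6.91 CPM in WT neurons with JQ1. The groups stood well apart, with a log2 change of -0.68 (SE 0.108, 95% interval -0.91 to -0.45, edgeR adjusted p = 0.00284). It passed whichever library was left out, and not with spike-in scaling (log2 change -0.79, adjusted p = 1), under which 23 genes of all tested passed.

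Hes1, Hes5 and Notch2 did not pass, but each did so in at least 1 alternative. Hes1 had 2.40, 3.91 and 4.37 CPM in KO neurons with JQ1, against 4.79, 5.13 and 5.79 CPM in WT neurons with JQ1 (log2 change -0.53, SE 0.165, edgeR adjusted p = 0.0588). Hes5 had 3.59, 4.87 and 5.35 CPM in KO neurons with JQ1, against 5.69, 6.48 and 5.88 CPM in WT neurons with JQ1 (log2 change -0.39, SE 0.141, adjusted p = 0.0925). In both genes the KO library numbered 1 was the lowest and no KO library reached a WT library. Without the KO JQ1 library numbered 3, the log2 changes were -0.66 for Hes1 (adjusted p = 0.0279) and -0.49 for Hes5 (0.0495), and both passed. DESeq2 also called Hes1 (adjusted p = 0.0201), and the fit with no filter on low counts called Hes1 (0.0153) and Notch2 (0.036).

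Notch2, a receptor widely made by progenitors and glia, had 14.7, 19.5 and 15.7 CPM in KO neurons with JQ1, against 20.5, 23.7 and 19.4 CPM in WT neurons with JQ1 (log2 change -0.35, SE 0.132, edgeR adjusted p = 0.108). The highest KO library lay just above the lowest WT library. Hey1 had 19.5 ± 2.24 CPM in KO neurons with JQ1 and 19.6 ± 0.539 CPM in WT neurons with JQ1, and its interval ran from -0.18 to 0.18. The other 5 genes had log2 changes between -0.24 and 0.13. In these libraries 3 of 10 markers of dividing cells (30%) and 3 of 15 of astrocytes and radial glia (20%) were lower in KO neurons. Over all genes 8.97% were called, 4.13% as lower. The summed levels of these markers were 127 to 183 and 961 to 1422 CPM in KO libraries. In WT libraries they were 211 to 248 and 1507 to 1887 CPM. The dividing-cell count was 1 without KO replicate 1, WT replicate 1 or WT replicate 2, and 7 with DESeq2 or with no filter on low counts. The astroglial count was 1 without WT replicate 2, and 6 with no filter. Without both KO libraries numbered 3, each count was 6. Of the 6 Cajal-Retzius markers, 4 were lower and 1 was higher in KO neurons with JQ1 (2 lower and 0 higher with spike-in scaling). That is 83.3%, against 8.97% of all genes. Their sums were 277 to 319 CPM in KO libraries and 229 to 334 CPM in WT libraries. The part of these cells in the Jag1 result was not tested.

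**Figure D2:**
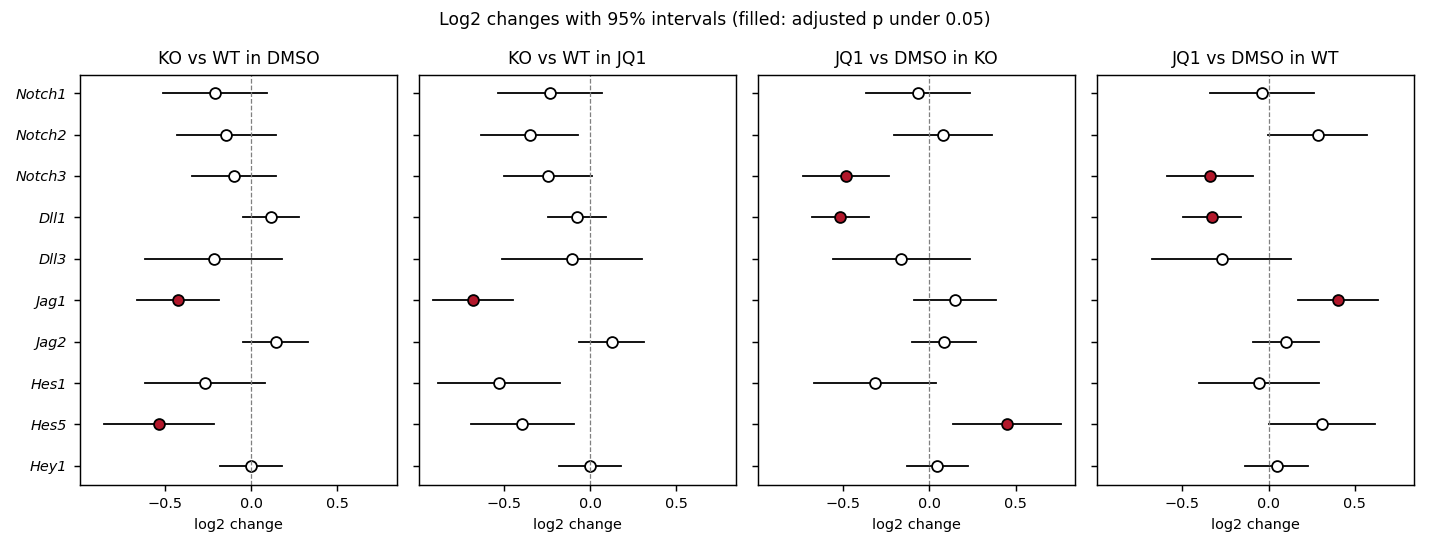
Log2 changes of the 10 genes (points, with 95% intervals) in the 4 comparisons, 1 panel each; filled points passed the edgeR test. Jag1 stands at -0.43 and -0.68 for KO against WT with DMSO and with JQ1, and Dll1 at -0.52 in KO and -0.33 in WT neurons for JQ1 against DMSO.

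JQ1 was then compared with DMSO within each genotype. The ligand gene Dll1 and the receptor gene Notch3 were lower with JQ1 in KO and in WT neurons, Jag1 was higher in WT neurons, turning with spike-in scaling, and Hes5 was higher in KO neurons. That makes 3 of 10 genes in KO neurons, against 57.1% of all genes (27.7% higher, 29.4% lower), and 3 of 10 in WT neurons, against 55.1% (25.9% higher, 29.3% lower). The median log2 change of the 10 genes was -0.010 in KO and 0.0034 in WT neurons, and that of all genes 0.0014 and -0.0043. Spike-in scaling moved the median gene by 0.06 in KO and by -0.63 in WT neurons. With it, none of the 10 genes passed in KO neurons, and 3 passed in WT neurons, all of them lower. Over all genes tested, 1520 then passed in KO neurons (1314 lower) and 5854 in WT neurons (5814 lower). In KO neurons 2 genes, Dll1 and Notch3, had JQ1 libraries below all DMSO libraries, against 60.7% of all genes without overlap (29.7% higher, 31.1% lower). In WT neurons the JQ1 libraries lay above all DMSO libraries for Jag1 and Hes5 and below them for Dll1 and Notch3, 4 genes in all, against 62.6% (30.3% higher, 32.3% lower).

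Dll1 encodes Delta-like 1, the ligand by which differentiating neurons signal to progenitors. In KO neurons it had 9.29, 9.91 and 10.6 CPM with JQ1, against 14.9, 13.8 and 13.9 CPM with DMSO (log2 change -0.52, SE 0.0767, edgeR adjusted p = 5.62e-05). In WT neurons it had 11.3, 10.4 and 9.29 CPM with JQ1, against 13.1, 13.5 and 12.7 CPM with DMSO (log2 change -0.33, SE 0.0783, adjusted p = 0.00274). All 6 JQ1 libraries lay below all 6 DMSO libraries. The call in WT neurons held in all 13 alternatives, and that in KO neurons in all but spike-in scaling (log2 change -0.44, adjusted p = 0.525).

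Notch3, a receptor best known from mural cells of vessels and also made by neural progenitors, had 7.28, 9.87 and 9.12 CPM in KO neurons with JQ1, against 10.9, 13.6 and 12.5 CPM in KO neurons with DMSO (log2 change -0.48, SE 0.116, edgeR adjusted p = 0.00271). In WT neurons it had 10.1, 10.2 and 11.3 CPM with JQ1, against 11.9, 12.8 and 14.9 CPM with DMSO (log2 change -0.34, SE 0.118, adjusted p = 0.0242). Within each genotype the JQ1 and DMSO libraries did not overlap. The WT call was lost without JQ1 replicate 1 (adjusted p = 0.0937), JQ1 replicate 2 (0.0809) or DMSO replicate 3 (0.135), and the KO call with spike-in scaling (0.499). Of 8 mural markers, 5 were abundant enough to test. Of these 5, Rgs5 (log2 change -2.02 in KO and -1.97 in WT neurons) and Pdgfrb (-1.74 in WT neurons) were lower with JQ1 in both genotypes (40% of those tested, against 57.1% of all genes in KO and 55.1% in WT neurons). The other 3 did not pass, with values of -0.66 and -0.85 for Acta2, 0.17 and 0.07 for Tagln and 0.91 and 1.29 for Vtn. The summed mural level was 2.74 to 5.30 CPM with JQ1 and 5.11 to 6.34 CPM with DMSO in KO neurons, and 1.82 to 2.38 CPM with JQ1 and 4.78 to 5.61 CPM with DMSO in WT neurons. Their part in the Notch3 result was not tested.

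Jag1 in WT neurons had 6.17, 6.39 and 6.91 CPM with JQ1, against 4.48, 4.53 and 5.58 CPM with DMSO, with no overlap. Its log2 change was 0.40 (SE 0.108, edgeR adjusted p = 0.00557), turning to -0.20 with spike-in scaling (adjusted p = 0.574). In KO neurons it had 3.77, 4.03 and 4.28 CPM with JQ1, against 3.47, 3.34 and 4.07 CPM with DMSO, overlapping (log2 change 0.15, SE 0.111, adjusted p = 0.261). Whether the genotypes differ in this response was tested directly: the KO response minus the WT response was -0.25 (SE 0.155, 95% interval -0.59 to 0.08, adjusted p = 1).

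Hes5 in KO neurons had 3.59, 4.87 and 5.35 CPM with JQ1, against 3.09, 3.05 and 4.01 CPM with DMSO. The lowest JQ1 library lay below the highest DMSO library, and the log2 change was 0.45 (SE 0.146, edgeR adjusted p = 0.0163). The call was lost without JQ1 replicate 2 (adjusted p = 0.0678), JQ1 replicate 3 (0.0695), DMSO replicate 1 (0.0707) or DMSO replicate 2 (0.0794), and with spike-in scaling (0.402). In WT neurons Hes5 had 5.69, 6.48 and 5.88 CPM with JQ1, against 4.31, 5.13 and 5.23 CPM with DMSO (log2 change 0.31, SE 0.143, adjusted p = 0.081). These libraries did not overlap, and Hes5 passed as higher in WT neurons in 3 of 13 alternatives, among them the replicate block. Of the 10 markers of dividing cells, 2 passed in KO neurons, 1 higher and 1 lower, and 1, Bub1, was higher in WT neurons. These are 20% and 10%, against 57.1% and 55.1% of all genes. The cell-cycle genes nearest to Hes5, given below, were higher with JQ1. Their log2 changes in KO neurons were 0.37 for Spc25, 0.36 for Smc4, 0.49 for Bub1 and 0.41 for Chek2. In WT neurons these were 0.30, 0.37, 0.40 and 0.23. Having been picked for following Hes5 in these libraries, they are described with no test. Of the 15 markers of astrocytes and radial glia, 1 was higher and 6 were lower with JQ1 in KO neurons (46.7% called). In WT neurons 1 was higher and 7 were lower (53.3%), with Aqp4 changed by -2.46 and Gja1 by -1.08. Both shares lie under the 57.1% and 55.1% of all genes. The part of these cells in the Hes5 result was not tested.

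Hes1 was split between the fits. In KO neurons it had 2.40, 3.91 and 4.37 CPM with JQ1, against 4.13, 4.04 and 5.23 CPM with DMSO (log2 change -0.32, SE 0.165, edgeR adjusted p = 0.115). With the replicate number as a block, which pairs the KO libraries, the change was -0.32 and passed (adjusted p = 0.0391), and without the JQ1 library numbered 3 it was -0.45 (0.0449). In WT neurons Hes1 had 5.24 ± 0.509 CPM with JQ1 and 5.37 ± 0.186 CPM with DMSO (SD, n = 3 each). The other genes did not pass in either genotype in the main test. In WT neurons, Notch2 passed as higher in 3 of 13 alternatives, among them the replicate block, and Dll3 passed as lower in 1. Notch2 changed by 0.08 in KO and 0.29 in WT neurons, Notch1 by -0.06 and -0.04, Dll3 by -0.16 and -0.27, Jag2 by 0.09 and 0.10, and Hey1 by 0.04 and 0.05.

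The difference between the KO and the WT response to JQ1 was called for 0 of the 10 genes, as for 0% of all genes. edgeR called 0 of 15433 genes with 355 at an unadjusted p under 0.05, none of them among the 10, and DESeq2 called 0. The intervals were wide enough to hold sizeable differences, from -0.42 to 0.04 for Dll1, from -0.30 to 0.58 for Hes5 and from -0.76 to 0.23 for Hes1. A failure to pass does not show that the genotypes respond alike.

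Ratios between 2 genes of the same library do not depend on the scaling. They are given for 4 pairs as a description with no test, since each pair sets a gene that passed beside one that did not and was chosen after the values were seen. With JQ1, the ratio of Jag1 to Jag2 counts was 0.0675 to 0.0967 in KO libraries and 0.129 to 0.161 in WT libraries, and with DMSO it was 0.0755 to 0.0831 in KO libraries and 0.0986 to 0.144 in WT libraries. With JQ1, the ratio of Hes5 to Hey1 was 0.211 to 0.251 in KO libraries and 0.298 to 0.324 in WT libraries, and with DMSO it was 0.159 to 0.194 in KO libraries and 0.225 to 0.277 in WT libraries. For both ratios the KO libraries lay below the WT libraries under each treatment.

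The ratio of Notch3 to Notch2 in KO neurons was 0.495 to 0.581 with JQ1 and 0.747 to 0.797 with DMSO, and in WT neurons it was 0.429 to 0.586 with JQ1 and 0.707 to 0.804 with DMSO. The ratio of Dll1 to Jag2 in KO neurons was 0.166 to 0.239 with JQ1 and 0.285 to 0.324 with DMSO, and in WT neurons it was 0.217 to 0.244 with JQ1 and 0.288 to 0.335 with DMSO. For both ratios the JQ1 libraries lay below the DMSO libraries in each genotype. A ratio does not tell which of its genes differs.

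Around these 10 genes, 53 others of the pathway were listed by role, and 47 of them were abundant enough to test. Between genotypes, 6 were higher and 3 lower in KO neurons with DMSO (9 of 47, 19.1%, against 15% of all genes), and 3 were higher and 4 lower in KO neurons with JQ1 (7 of 47, 14.9%, against 8.97% of all genes). The 9 calls dropped to 5 without KO replicate 1 or WT replicate 1 with DMSO. With spike-in scaling the DMSO split was 0 higher and 37 lower, beside 4 higher and 11990 lower of all genes, and no pathway gene passed with JQ1. Among negative regulators, Dtx4 (log2 change 0.39), Numbl (0.30), Dtx3 (0.15) and Dtx1 (0.17, named after its values were seen) were higher, each falling below 0 with spike-in scaling, and Itch (-0.27), a ubiquitin ligase that targets Notch, was lower. Furin, the protease that matures the receptor, was higher by 0.32, its value falling below 0 with spike-in scaling. Aph1b of gamma-secretase was lower (-0.21).

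With JQ1, Dtx4 (log2 change 0.38), Dtx3 (0.17) and Furin (0.17) were higher in KO neurons as well, and Aph1b (-0.18) was lower. Maml2, a coactivator of the RBPJ complex, was lower by this test too (-0.52), as was Neurl1a, a ligase that acts on ligands (-0.26). These 7 pathway calls with JQ1 are unstable: 1 was left without WT replicate 1, 2 without KO replicate 1, 3 without WT replicate 2, and 4 without KO replicate 2 or WT replicate 3. None of those higher in KO neurons was left without KO replicate 2 or WT replicate 1. Without both KO libraries numbered 3, 11 pathway genes passed. Rbpj itself, named here after its values were seen, did not pass in any of the 4 comparisons.

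With JQ1 against DMSO, 9 pathway genes were higher and 22 lower in KO neurons (31 of 47, 66%, against 57.1% of all genes), and 10 were higher and 16 lower in WT neurons (26 of 47, 55.3%, against 55.1%). The totals are near those over all genes. By direction, the 22 lower and 9 higher of 47 in KO neurons stand beside 29.4% lower and 27.7% higher of all genes. The 16 lower and 10 higher in WT neurons stand beside 29.3% and 25.9%. With spike-in scaling the splits were 0 higher and 2 lower (Mfng and Dlk1) in KO neurons, and 0 higher and 22 lower in WT neurons. Each lower count here, with either scaling, includes Mfng, for which no test is reported. Mfng, a Fringe enzyme that adds sugars to the receptor, had 4, 4 and 1 counts in KO libraries with JQ1, against 31, 36 and 27 with DMSO, and 4, 8 and 0 counts in WT libraries with JQ1 against 18, 25 and 27 with DMSO. It passed the filter on low counts only through its DMSO libraries, so its fitted log2 changes of -3.09 in KO and -3.41 in WT neurons are given as a description, with no test.

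The other Hes and Hey factors had 3 of 6 genes tested, and these 3 were lower in both genotypes. Hey2 changed by -1.02 in KO and -0.97 in WT neurons, Hes7 by -0.88 and -0.84, and Hes6, which promotes neuronal differentiation, by -0.64 and -0.53. The non-canonical ligand gene Dlk1 changed by -1.66 in KO and -1.72 in WT neurons, and the receptor gene Notch4 by -0.81 and -0.57. Dlk2, of the same list, was higher by 0.42 in KO and 0.41 in WT neurons, its WT value turning to -0.24 with spike-in scaling. Among proneural factors, Neurog2 was lower (log2 change -0.97 in KO and -0.73 in WT neurons), while Neurod1 was higher by 0.68 in KO and 0.63 in WT neurons, its WT value being -0.016 with spike-in scaling.

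Genes of receptor cleavage went both ways. Adam17 and Adam10, the proteases of the first cut, were higher by 0.70 and 0.52 in KO neurons and by 0.65 and 0.46 in WT neurons. With spike-in scaling the WT value of Adam10 turned to -0.17, and that of Adam17 fell to 0.027. Furin changed by -0.39 in KO and -0.24 in WT neurons, and Psen2, of gamma-secretase, by -0.41 and -0.46. Of the 4 ligases that act on ligands, Neurl1b (-0.47), Neurl1a (-0.33) and Mib2 (-0.31) were lower and Mib1 (0.18) was higher in KO neurons. In WT neurons Mib2 (-0.22) was lower and Mib1 (0.26) was higher, the Mib1 value turning to -0.36 with spike-in scaling. Numb, which antagonises Notch, was higher by 0.42 in KO and 0.41 in WT neurons (-0.22 in WT neurons with spike-in scaling), and Nrarp, a feedback inhibitor that Notch induces, was lower in KO neurons (-0.40). The corepressor gene Spen was higher by 0.56 in KO and 0.62 in WT neurons (0.010 in WT neurons with spike-in scaling).

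**Figure D3:**
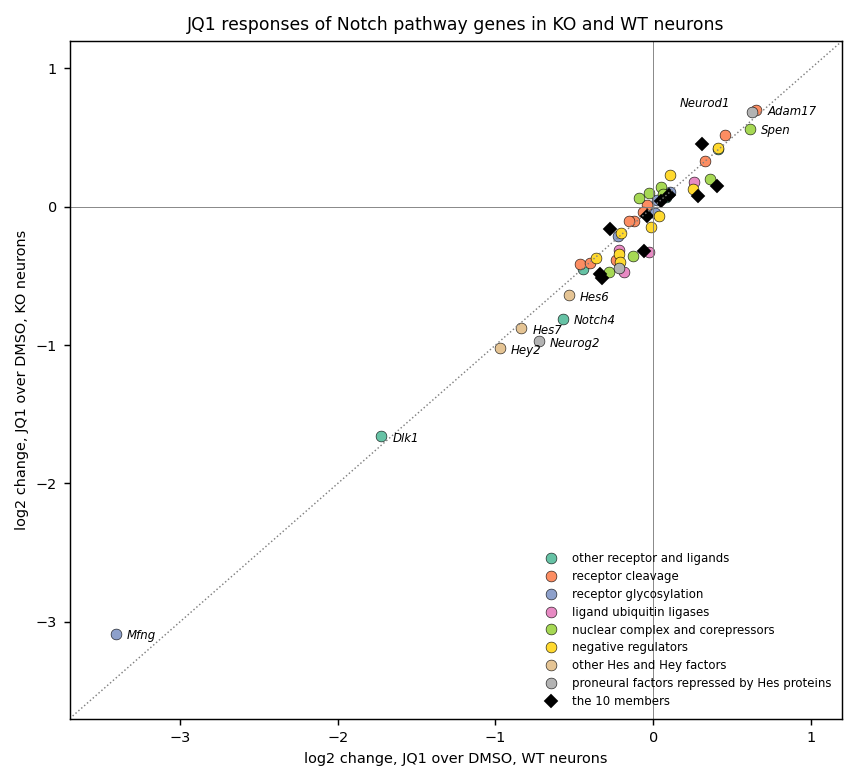
Log2 change with JQ1 over DMSO in KO neurons (vertical axis) against WT neurons (horizontal axis) for the 47 pathway genes tested (circles, coloured by role) and the 10 members (black diamonds), with a dotted line of equal change. The changes share no libraries between axes, and Mfng lies farthest out at -3.09 and -3.41.

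The genes whose level followed each repressor most closely were found by the root mean square (RMS) difference of log2 CPM over the 12 libraries, after centring each gene on its own mean. For Hes5 these were Spc25 (0.0579), Smc4 (0.0715), Bub1 (0.0832) and Chek2 (0.0908), genes of the kinetochore, of condensin and of cell-cycle checkpoints, against a median of 0.393 over all genes. Hes1 had looser neighbours, Camk2n1 (0.125), Tpx2 (0.136), Aard (0.144) and Eci1 (0.144), against 0.397. Hey1, which varied little, had Mllt3 (0.0517), Fam49b (0.0560), Lin7a (0.0566) and Celf4 (0.0579), against 0.217. Among the 10 genes themselves, Notch1 and Notch2 were closest (0.143), then Jag1 and Hes5 (0.168) and Jag2 and Hey1 (0.185), while Dll1 and Hes5 were farthest apart (0.503). These are descriptions over libraries that share 4 groups.

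**Figure D4:**
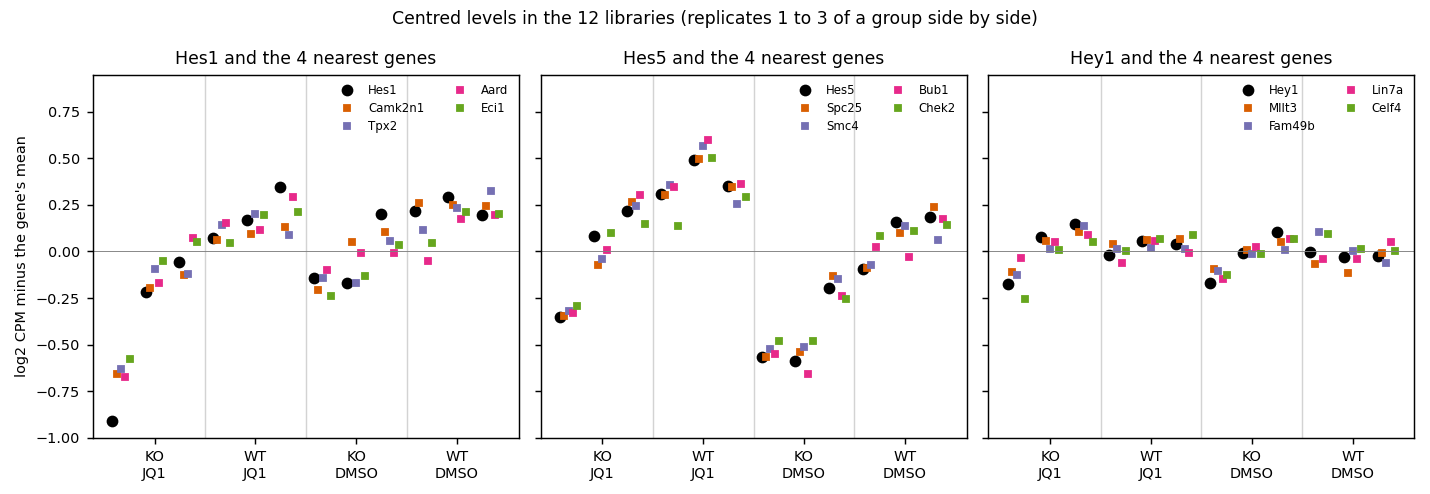
Log2 CPM minus each gene's own mean in the 12 libraries, in 3 panels, for Hes1, Hes5 and Hey1 (black circles) and the 4 genes nearest to each (coloured squares), with the replicates of a group side by side. The points of Hes5 and its neighbours lie close together in every library, while those of Hes1 spread wider in the KO JQ1 library numbered 1.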

How the data were processed

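RNA-seq libraries (75 bp single reads) were processed with TopHat2 2.1.0, SAMtools 0.1.19, HTSeq 0.6.1, DESeq2 and DESeq on the mm9 build, per the submitters' processing notes. Whether strand was used in counting is not stated in these notes or the labels. The deposited table holds raw counts per gene for 12 libraries. The authors' deposited comparison table holds mean signal, log2 fold change, Wald score and p-value, KO over WT; its mean signal matches that of the DMSO libraries.

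Counts were tested in R 4.3.3 with edgeR 4.0.16 (quasi-likelihood F test, TMM scaling, filterByExpr with a minimum count of 10, 1 mean per group over 12 libraries, 8 residual degrees of freedom, biological coefficient of variation 6.69%), with Benjamini-Hochberg adjustment over 15433 genes. The method was tested on simulated data. CPM use TMM-scaled totals. Depth limits precision most for genes of a few counts. Alternatives were DESeq2 1.42.0, RLE scaling, no filter, only the groups compared, a replicate block, spike-in scaling (86 of 92 ERCC RNAs detected) and leaving out libraries. Same-numbered KO libraries with JQ1 and DMSO deviated together (correlations 0.23, 0.29 and 0.21), so the numbers pair them. Same-numbered WT libraries did so more weakly (0.094, 0.16 and 0.15), each closest to its own number. Both comparisons of KO with WT held negative correlations. The main test does not use this pairing. The replicate block uses it for JQ1 against DMSO, within each genotype. For KO against WT the block instead matches KO and WT libraries of the same number, which the labels do not say belong together. Same-number correlations across genotypes were 0.011, -0.065 and -0.18 with DMSO, and 0.077, 0.12 and -0.016 with JQ1.

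All 10 members are named. From each pathway list, up to 4 called genes of smallest adjusted p per comparison were named, from each marker list up to 3, and for Hes1, Hes5 and Hey1 the 4 nearest genes. Members and lists were chosen with earlier results of these data known. Exon lengths come from GENCODE vM21 and promoters from RefSeq. Values of some list genes are not reported here.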

Additional observations from a re-analysis of the deposited data

How the results depend on the processing

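Over 5 comparisons the 10 genes gave 50 log2 changes and 700 values under alternatives. Of these, 596 kept their sign and their side of the threshold, 37 took the other sign without a call and within 1 SE of the main value, 18 lost a call, 24 gained one, 4 reversed and 21 took the other sign without a call and by more than 1 SE. With spike-in scaling, KO against WT with DMSO called 10 genes in place of 2, and Dll1 (-0.71), Jag2 (-0.69) and Hey1 (-0.79) reversed, as did Jag1 (-0.20) for JQ1 against DMSO in WT neurons. The same scaling called 0 genes for KO against WT with JQ1 and 0 for JQ1 against DMSO in KO neurons. KO against WT with JQ1, 1 call in the main test, gave 2 with DESeq2, 3 with no filter on low counts, 4 with the replicate block (Jag1, Hes1, Hes5 and Notch2) and 3 without both KO libraries numbered 3. JQ1 against DMSO in WT neurons, 3 calls, gave 5 with the replicate block, adding Notch2 and Hes5, and each WT library correlated best with its own number. The replicate block added Hes1 in KO neurons and changed no other call of the 10 genes. Leaving out single libraries gave 0 to 2 calls for KO against WT with DMSO, 1 to 3 with JQ1, 2 to 3 for JQ1 against DMSO in WT neurons, 2 to 3 in KO neurons, and 0 for the difference of responses. The difference of responses gave 0 calls in every alternative run. Over all genes, KO against WT with DMSO called 2311 (885 to 2540 without 1 library, 11994 with spike-in scaling), and with JQ1 1385 (534 to 2027 without 1 library, 630 with the groups compared alone, 2469 without both KO libraries numbered 3, 23 with spike-in scaling). JQ1 against DMSO in KO neurons called 8817, and 1520 with spike-in scaling. The pathway list's 7 calls for KO against WT with JQ1 were 11 with DESeq2, 2 with the groups compared alone, 11 without both KO libraries numbered 3, 0 with spike-in scaling and 1 to 9 without 1 library. Its 9 calls with DMSO were 5 to 11 without 1 library and 37 with spike-in scaling. Its 31 calls for JQ1 against DMSO in KO neurons were 2 with spike-in scaling, and Mfng, given with no test, counts among both. For KO against WT, of members and markers alike, the replicate block matched KO and WT libraries by number alone. It called 8 astroglial markers with DMSO in place of 2. With JQ1 it called 7 astroglial and 7 dividing-cell markers in place of 3 each. The cause of these shifts was not tested. Depth limits genes such as Mfng, whose libraries held at most 36 counts.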
